A study of Mus musculus with 15 samples.

Results

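The genes described here are 10 enteroendocrine genes, measured by 12 of the 25695 probes of a mouse bead array and belonging to the 16592 genes with a named probe. They were chosen by name, and every probe of each gene was kept. They are the transcription factors Neurog3, Neurod1 and Isl1, the hormone genes Cck, Sct and Gip, the granin genes Chga, Chgb and Scg2, and the prohormone convertase gene Pcsk1. Chga had 3 probes and each of the others had 1.

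RNA came from jejunal gut scrapes, enriched for epithelium, of 15 mice in 4 groups. The 4 control mice were VillinCreERT2- and so carried no Cre. The 4 Brg1 deficient mice were VillinCreERT2+_Brg1fl/fl, the 3 Apc deficient mice VillinCreERT2+_Apcfl/fl_Brg1+/+, and the 4 Brg1-Apc deficient mice VillinCreERT2+_Apcfl/fl_Brg1fl/fl. All 15 mice, controls included, received tamoxifen at 80 mg/kg in 4 daily injections, and the scrapes were made on day 4 post induction. VillinCreERT2 places a tamoxifen-switched Cre under a promoter active in gut epithelium. The Brg1 protein, encoded by Smarca4, is a nucleosome remodelling ATPase, and Apc holds the Wnt pathway in check. The sources used here do not give the age of the mice, nor which cells of a scrape had recombined. Any effect of induced Cre itself enters each comparison with the Cre-negative controls. It does not enter Brg1-Apc deficient against Apc deficient or against Brg1 deficient mice.

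Enteroendocrine cells are scattered hormone-secreting cells of the gut epithelium. They arise from crypt progenitors that switch on Neurog3 for a short time, and Neurog3 in turn activates later factors such as Neurod1, which mark cells on their way to a hormone-producing state. Mature cells store peptides such as cholecystokinin (Cck), secretin (Sct) and glucose-dependent insulinotropic polypeptide (Gip) in dense-core granules together with granins, after convertases such as that of Pcsk1 have cut the hormone precursors. Neurog3 therefore stands for the progenitor stage, and the hormones and granins for the mature stage.

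The stretch just upstream of the start site is shown for the 7 genes that passed the test in at least 1 comparison below. The gene that rose with Apc loss (Neurog3) can thus be read beside Sct and beside Isl1, Cck, Gip, Chga and Scg2. Those 5 were called lower than control in 1 or both of the groups without Apc. The sequences are RefSeq's, on the mouse build GRCm38.p6, written 5′ to 3′ on the gene's strand. Each ends just before the annotated gene. Capitals mark the E-box CANNTG, the kind of site that basic helix-loop-helix factors such as Neurog3 and Neurod1 bind, and TGACGT, the core of the cAMP response element (CRE), read on both strands.
Neurog3 (chr10:62132840-62133089, plus strand, 250 bases): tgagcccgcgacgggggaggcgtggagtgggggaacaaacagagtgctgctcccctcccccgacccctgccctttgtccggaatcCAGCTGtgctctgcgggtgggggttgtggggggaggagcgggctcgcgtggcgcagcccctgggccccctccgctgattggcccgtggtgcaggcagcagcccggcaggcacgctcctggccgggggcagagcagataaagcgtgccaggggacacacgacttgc
Isl1 (chr13:116309689-116309938, minus strand, 250 bases): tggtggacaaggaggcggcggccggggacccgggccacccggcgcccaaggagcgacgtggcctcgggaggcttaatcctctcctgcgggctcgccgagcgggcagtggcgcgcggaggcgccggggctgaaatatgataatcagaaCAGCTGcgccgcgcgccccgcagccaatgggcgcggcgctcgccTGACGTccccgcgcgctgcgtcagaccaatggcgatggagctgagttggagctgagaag
Cck (chr9:121495695-121495944, minus strand, 250 bases): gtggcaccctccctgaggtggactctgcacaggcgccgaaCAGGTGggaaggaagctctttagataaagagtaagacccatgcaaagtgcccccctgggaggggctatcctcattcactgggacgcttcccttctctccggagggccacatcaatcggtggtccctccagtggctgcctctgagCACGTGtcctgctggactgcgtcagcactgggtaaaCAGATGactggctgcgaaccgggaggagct
Sct (chr7:141279175-141279383, minus strand, 209 bases): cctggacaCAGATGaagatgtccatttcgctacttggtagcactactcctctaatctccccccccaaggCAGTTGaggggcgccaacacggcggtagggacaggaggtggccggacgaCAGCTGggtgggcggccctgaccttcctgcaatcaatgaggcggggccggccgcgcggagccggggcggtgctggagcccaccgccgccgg
Gip (chr11:96024295-96024531, plus strand, 237 bases): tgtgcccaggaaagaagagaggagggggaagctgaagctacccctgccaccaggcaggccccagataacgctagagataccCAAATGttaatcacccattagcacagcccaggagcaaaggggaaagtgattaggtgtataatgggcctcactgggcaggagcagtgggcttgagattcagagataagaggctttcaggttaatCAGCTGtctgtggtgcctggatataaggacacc
Chga (chr12:102554691-102554940, plus strand, 250 bases): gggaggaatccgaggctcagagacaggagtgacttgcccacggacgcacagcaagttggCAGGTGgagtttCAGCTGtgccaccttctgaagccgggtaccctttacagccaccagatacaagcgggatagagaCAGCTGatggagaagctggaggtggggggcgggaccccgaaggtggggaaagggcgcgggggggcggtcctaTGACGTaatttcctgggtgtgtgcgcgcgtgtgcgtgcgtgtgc
Scg2 (chr1:79440027-79440276, minus strand, 250 bases): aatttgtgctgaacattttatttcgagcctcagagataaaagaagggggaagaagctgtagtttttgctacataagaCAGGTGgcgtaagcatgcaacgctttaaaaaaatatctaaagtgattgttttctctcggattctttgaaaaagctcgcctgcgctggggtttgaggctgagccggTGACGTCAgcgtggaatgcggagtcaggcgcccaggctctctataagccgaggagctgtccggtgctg
Both motifs were chosen after the promoters had been seen. Over the 250 bases before each start in RefSeq's table, an E-box lay in 9 of the 10 genes, all but Pcsk1, against 66.2% of 32851 promoters. TGACGT lay in 5 of the 10 (Isl1, Chga, Chgb, Scg2 and Pcsk1), against 6.47% of the same promoters. It began 59 bases before the start in Isl1 and 44 bases before it in Chga. Where TGACGT is followed by CA, as in Scg2, the matches on the 2 strands overlap, and in these 10 genes no E-box shared bases with TGACGT. The 3 genes with the most E-boxes, Cck, Sct and Chga, had 3 each. Counted as well, but not marked, were AGATAA, in 4 of the 10 genes against 9.99% of promoters, and TATAAA, in 1 against 12.4%. A match describes the letters in the window and says nothing of binding.

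Values are on the deposited log2 scale. Array medians ran from 5.59 to 5.90, and a group mean at or below 5.90 is called near background here, where part of a difference can be hidden. Smarca4 was lower in the 2 Brg1-deleted groups than in their counterparts, as the labels have it (log2 difference of -1.36 from control and -2.07 from Apc deficient mice, limma adjusted p = 0.000215 and 7.28e-06). The Apc transcript gave no such check of the groups without Apc. By the brighter of its 2 probes its log2 difference from control was 0.08 with Apc loss (adjusted p = 0.956) and -0.96 with both losses (adjusted p = 0.24), and the sources used here do not give the deleted part of Apc or whether the probe lies in it. Brg1 deficient replicate 4 stood apart by the narrow spread of its values: its interquartile range was 1.23, whereas the other 14 arrays had 1.89 to 2.56. Control replicate 4 carried pancreatic acinar RNA and control replicate 1 smooth muscle RNA, with values given below. Array codes in the labels put replicates 1 and 2 of each group on slide 1 and the others on slide 2, which held a single Apc deficient array. Each genotype had the same positions on both slides, so position and genotype cannot be told apart. Epithelial markers averaged 10.26 to 11.47 on every array, over the 9 of 12 that were measured. In RNA of a whole scrape, fewer cells of a type and less RNA per cell cannot be told apart.

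Loss of Apc was accompanied by a higher level of the progenitor factor Neurog3 and lower levels of Isl1 and of 3 of the 7 mature genes. In Apc deficient against control mice, 5 of the 10 genes passed the test (limma, Benjamini-Hochberg adjusted p under 0.05 over all probes), where 15.2% of all genes did. Neurog3 rose, while Isl1, Cck, Gip and Chga fell. The median log2 difference of the 10 genes was -0.64, and that of all genes was -0.03. Brg1 deficient mice had 0 of 10 called, beside 3.31% of all genes, and 5 of the 10 had an unadjusted limma p under 0.05. The share of all genes under that unadjusted threshold was not counted. Such counts, here and below, therefore cannot be set beside all genes. Adding Brg1 loss to Apc loss left 1 of 10 called against Apc deficient mice, Sct, which was higher, beside 7.81% of all genes, and 5 of the 10 had an unadjusted p under 0.05. That count ran from 0 without Apc deficient replicate 2 to 5 without Brg1 deficient replicate 4, beside 2.8% and 12.3% of all genes.

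**Figure D1:**
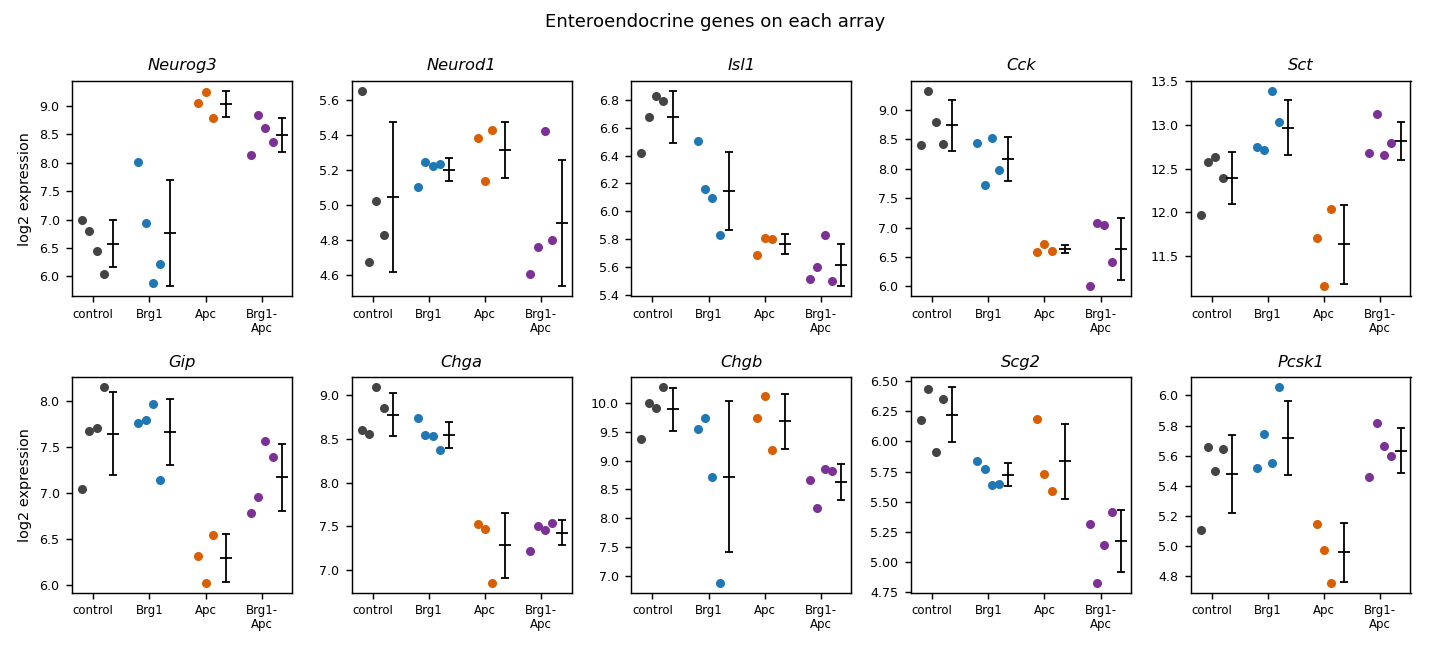
Log2 expression of the 10 genes (y axis, 1 scale per panel) in the 4 groups (x axis; Brg1, Apc and Brg1-Apc stand for the deficient groups), by the brightest probe of each gene. Points are single arrays, and the bar beside them is the mean with the SD. Neurog3 lies at 8.79 or above on all 3 Apc deficient arrays and at 7.0 or below on all 4 control arrays, while Cck and Chga lie lower in both groups without Apc than in control.

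Neurog3, the basic helix-loop-helix factor that commits a progenitor to the endocrine fate, read 7.0, 6.79, 6.45 and 6.05 on the 4 control arrays and 9.06, 9.26 and 8.79 on the 3 Apc deficient arrays. The Brg1-Apc deficient arrays read 8.14, 8.84, 8.61 and 8.37, and the Brg1 deficient arrays 8.01, 6.93, 5.88 and 6.21. Every array without Apc lay above every array with it, although Brg1 deficient replicate 1, at 8.01, came close to the lowest Brg1-Apc deficient array. Group means ran in the order control (6.57 ± 0.42, SD, n = 4), Brg1 deficient (6.76 ± 0.94, n = 4), Brg1-Apc deficient (8.49 ± 0.30, n = 4) and Apc deficient (9.04 ± 0.23, n = 3). The 2 lower groups overlapped, and so did the 2 higher ones. Neurog3 rose by 2.46 log2 units (SE 0.38), or 5.51-fold, in Apc deficient against control mice (limma adjusted p = 0.000334). Within slide 1 the log2 difference was 2.26 and within slide 2 it was 2.54 (adjusted p = 0.00409 and 0.0439). It rose 3.77-fold in Brg1-Apc deficient against control mice (log2 difference 1.91, SE 0.35, adjusted p = 0.00355) and 3.31-fold against Brg1 deficient mice (1.72, SE 0.35, adjusted p = 0.0069). On slide 2 alone the first of these, 2.24, missed the threshold (adjusted p = 0.0683), and on slide 1 it was 1.59 (adjusted p = 0.043). The second was 1.01 on slide 1, where it missed the threshold (adjusted p = 0.183), and 2.44 on slide 2 (adjusted p = 0.0189). With only the 2 groups in the fit it missed as well (1.72, adjusted p = 0.0542). Between Brg1-Apc deficient and Apc deficient mice Neurog3 differed by -0.55 (95% interval -1.36 to 0.26, adjusted p = 0.475), and between Brg1 deficient and control mice by 0.19 (interval -0.56 to 0.94, adjusted p = 0.853).

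Neurod1, a basic helix-loop-helix factor that acts after Neurog3, was read by a probe near background in every group. Its arrays ran from 4.68 to 5.65 in control, 5.10 to 5.25 in Brg1 deficient, 5.13 to 5.43 in Apc deficient and 4.60 to 5.42 in Brg1-Apc deficient mice. The 4 ranges overlapped, and no comparison passed the test. The Apc deficient against control difference was 0.27 (interval -0.24 to 0.77, adjusted p = 0.596), at a level where the probe shows little.

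Isl1, a LIM homeodomain factor of differentiating endocrine cells, read 6.42, 6.68, 6.82 and 6.79 in control and 6.5, 6.16, 6.10 and 5.83 in Brg1 deficient mice. It read 5.69, 5.81 and 5.80 in Apc deficient and 5.52, 5.60, 5.83 and 5.51 in Brg1-Apc deficient mice, near background in both. All 7 arrays without Apc lay below all 4 control arrays, and the Brg1 deficient arrays lay between, overlapping the controls and the Brg1-Apc deficient arrays. Isl1 fell by 0.91 log2 units (SE 0.19) in Apc deficient against control mice (limma adjusted p = 0.0035). With both genes deleted it stood 2.09-fold below control (log2 difference -1.06, SE 0.18, adjusted p = 0.00167). Neither call held within a single slide: the Apc deficient difference was -0.80 on slide 1 and -1.01 on slide 2 (adjusted p = 0.115 and 0.22), and the Brg1-Apc deficient difference was -0.98 and -1.14 (adjusted p = 0.0867 and 0.206). In Brg1 deficient against control mice the difference of -0.53 (SE 0.18) did not pass (adjusted p = 0.134).

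Cck, the hormone of I cells that triggers gallbladder contraction and pancreatic secretion, read 8.41, 9.32, 8.79 and 8.42 in control and 8.43, 7.73, 8.52 and 7.98 in Brg1 deficient mice. It read 6.59, 6.72 and 6.61 in Apc deficient and 6.0, 7.08, 7.05 and 6.42 in Brg1-Apc deficient mice. The 7 arrays without Apc all lay below the 8 with it. Group means were 8.74 ± 0.43 in control, 8.17 ± 0.38 with Brg1 loss, 6.64 ± 0.07 with Apc loss and 6.64 ± 0.52 with both (SD, n = 4, 4, 3 and 4), and neighbours in that order overlapped except across the step between the groups with and without Apc. Cck fell by 2.10 log2 units (SE 0.29) in Apc deficient against control mice, a 4.28-fold lower level (limma adjusted p = 0.000147), the largest fall among the 10 genes in that comparison. Its difference in Brg1-Apc deficient against control mice was of like size, -2.10 (SE 0.27, adjusted p = 0.00024). The 2 groups without Apc differed by less than 0.01 in their means (interval of the difference -0.62 to 0.61, adjusted p = 0.997). Within slide 1 the Apc deficient difference was -2.21 (adjusted p = 0.00709) and within slide 2, with its single Apc deficient array, -2.0 (adjusted p = 0.0766). For Brg1-Apc deficient against control mice these values were -2.33 and -1.87 (adjusted p = 0.0125 and 0.119). Brg1-Apc deficient mice were also lower than Brg1 deficient mice (-1.53, SE 0.27, adjusted p = 0.0023), a difference that kept its size on each slide alone without passing there (-1.54 and -1.52, adjusted p = 0.0672 and 0.0892).

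Sct, the hormone of S cells that raises pancreatic bicarbonate output, followed another order. It read 11.97, 12.58, 12.63 and 12.39 in control, 12.75, 12.71, 13.39 and 13.03 in Brg1 deficient, 11.70, 11.15 and 12.04 in Apc deficient, and 12.68, 13.13, 12.66 and 12.79 in Brg1-Apc deficient mice. The Apc deficient arrays were low, and all 8 arrays of the 2 Brg1-deleted groups lay above all 4 control arrays. The order of the means was Apc deficient (11.63 ± 0.45), control (12.39 ± 0.30), Brg1-Apc deficient (12.81 ± 0.22) and Brg1 deficient (12.97 ± 0.32), with SD. Sct rose 2.27-fold in Brg1-Apc deficient relative to Apc deficient mice (log2 difference 1.18, SE 0.25, limma adjusted p = 0.00742). On slide 1 this difference was 1.48 (adjusted p = 0.0181) and on slide 2 it was 0.69 (adjusted p = 0.728). Without Apc deficient replicate 2 it was 0.94 and missed the threshold (adjusted p = 0.0739). In that fit 2.8% of all genes were called in this comparison, beside 7.81% with all arrays. In Apc deficient against control mice the difference of -0.76 (SE 0.25) lay just outside the threshold (adjusted p = 0.0521) and passed in 9 of 27 alternatives. Brg1 deficient mice differed from control by 0.58 (SE 0.23, adjusted p = 0.218) and Brg1-Apc deficient mice by 0.42 (SE 0.23, adjusted p = 0.357), so that the separation of the arrays from control was not matched by a call.

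Gip, the hormone of K cells that strengthens insulin release after a meal, read 7.05, 7.68, 7.71 and 8.15 in control and 7.76, 7.79, 7.96 and 7.14 in Brg1 deficient mice. It read 6.31, 6.02 and 6.55 in Apc deficient and 6.78, 6.96, 7.56 and 7.39 in Brg1-Apc deficient mice. The Apc deficient arrays were the 3 lowest of the 15, and the Brg1-Apc deficient arrays overlapped the control arrays. Means were 7.65 ± 0.45 in control, 7.67 ± 0.36 with Brg1 loss, 7.17 ± 0.36 with both losses and 6.30 ± 0.26 with Apc loss (SD). Gip fell by 1.35 log2 units (SE 0.27) in Apc deficient against control mice, or 2.55-fold (limma adjusted p = 0.00275), with -1.19 on slide 1 (adjusted p = 0.0299) and -1.38 on slide 2 (adjusted p = 0.187). Gip was 0.88 (SE 0.27) higher in the double than in the Apc deficient mice without passing the test (adjusted p = 0.0639), and against control it was 0.47 (SE 0.25) lower (log2 difference -0.47, adjusted p = 0.355). Without Brg1 deficient replicate 4 the adjusted p of the 0.88 was 0.0306.

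Chga, the granin most often used to mark enteroendocrine cells, had 3 probes that did not all move alike. The brightest read 8.60, 8.56, 9.09 and 8.85 in control, 8.74, 8.54, 8.54 and 8.37 in Brg1 deficient, 7.52, 7.48 and 6.86 in Apc deficient, and 7.22, 7.51, 7.46 and 7.54 in Brg1-Apc deficient mice. All 7 arrays without Apc lay below all 8 with it, at means of 7.29 ± 0.37 (Apc deficient) and 7.43 ± 0.14 (Brg1-Apc deficient) beside 8.78 ± 0.24 (control) and 8.55 ± 0.15 (Brg1 deficient), with SD. By this probe Chga fell by 1.49 log2 units (SE 0.21) in Apc deficient against control mice (2.81-fold, limma adjusted p = 0.000145). With both genes deleted the level lay 2.54-fold below control (log2 difference -1.34, SE 0.19, adjusted p = 0.000531) and 2.17-fold below Brg1 deficient mice (-1.12, SE 0.19, adjusted p = 0.00185). The Apc deficient difference was -1.08 on slide 1 and -2.11 on slide 2 (adjusted p = 0.0304 and 0.0446). The Brg1-Apc deficient difference from control was -1.22 and -1.47 (adjusted p = 0.035 and 0.114), and that from Brg1 deficient mice -1.28 and -0.96 (adjusted p = 0.0308 and 0.147). The probe of middle brightness fell by 1.54 (SE 0.34) and by 1.49 (SE 0.31) against control in the same 2 groups (adjusted p = 0.00506 and 0.00867). Without control replicates 1 and 4 both calls ended at differences of -1.46 and -1.41 (adjusted p = 0.0571 and 0.118), and with Brg1 deficient replicate 4 left out too the same differences passed (adjusted p = 0.00738 and 0.0162). The first was -1.28 on slide 1 and -1.93 on slide 2 (adjusted p = 0.0293 and 0.134), and the second -1.24 and -1.73 (adjusted p = 0.0634 and 0.219). Between Brg1-Apc deficient and Brg1 deficient mice this probe did not pass (-0.90, SE 0.31, limma adjusted p = 0.125). There the arrays overlapped. Without Brg1 deficient replicate 4 that difference was -1.26 (adjusted p = 0.00339). The dimmest probe, which averaged 6.19 over the 15 arrays, passed in no comparison, and its Apc deficient difference was -0.32 (interval -1.30 to 0.65, limma adjusted p = 0.775). On control replicate 4 this probe read 7.72, beside 5.64, 5.84 and 6.22 on the other controls. Without control replicates 1 and 4 its Apc deficient difference was 0.0005.

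Chgb and Scg2, the other granin genes among the 10, did not follow Chga in every comparison. Chgb read between 9.37 and 10.27 on the 4 control arrays and 9.75, 10.13 and 9.18 in Apc deficient mice, which overlapped. The Brg1 deficient arrays were spread over 9.55, 9.74, 8.71 and 6.88, the last on the replicate 4 that stood apart, and the Brg1-Apc deficient arrays read 8.67, 8.18, 8.85 and 8.82. Each Brg1-Apc deficient array lay below every control and every Apc deficient array, yet no comparison of Chgb passed. Its difference was -0.20 (SE 0.49, limma adjusted p = 0.882) in Apc deficient and -1.26 (SE 0.45, adjusted p = 0.124) in Brg1-Apc deficient against control mice, and -1.06 (SE 0.49, adjusted p = 0.233) between these 2 deficient groups. Without Brg1 deficient replicate 4, whose spread enters every comparison, the last 2 passed with the same differences (adjusted p = 0.00513 and 0.0237). In Brg1 deficient against control mice the difference of -1.16 (SE 0.45, adjusted p = 0.21) shrank to -0.55 without that array (adjusted p = 0.417).

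Scg2, which encodes secretogranin II, read 6.18, 6.43, 5.92 and 6.35 in control, 5.84, 5.77, 5.64 and 5.64 in Brg1 deficient, 6.19, 5.73 and 5.58 in Apc deficient, and 5.31, 4.82, 5.14 and 5.42 in Brg1-Apc deficient mice. The control arrays lay above the Brg1 deficient arrays, those above the Brg1-Apc deficient arrays, and the Apc deficient arrays overlapped the first 2 groups. Scg2 fell 2.07-fold in Brg1-Apc deficient against control mice (log2 difference -1.05, SE 0.19, limma adjusted p = 0.00329), to a level near background. The call ended without control replicates 1 and 4 (-1.0, adjusted p = 0.0631). On slide 1 the difference was -1.24 and on slide 2 it was -0.86 (adjusted p = 0.0497 and 0.354). Against Apc deficient mice the difference of -0.66 (SE 0.21) did not pass (adjusted p = 0.0637), nor did that of -0.50 (SE 0.19) in Brg1 deficient against control mice (adjusted p = 0.201).

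Pcsk1, whose product cuts prohormones, was near background in every group mean, as was Neurod1. Its arrays ran from 5.11 to 5.66 in control, 5.52 to 6.06 in Brg1 deficient, 4.75 to 5.15 in Apc deficient and 5.46 to 5.82 in Brg1-Apc deficient mice. The Apc deficient arrays overlapped only the lowest control array. The differences were -0.52 (SE 0.20, limma adjusted p = 0.11) in Apc deficient against control and 0.68 (SE 0.20, adjusted p = 0.0512) in Brg1-Apc deficient relative to Apc deficient mice, and neither passed. Without Brg1 deficient replicate 4 the latter had an adjusted p of 0.0284.

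**Figure D2:**
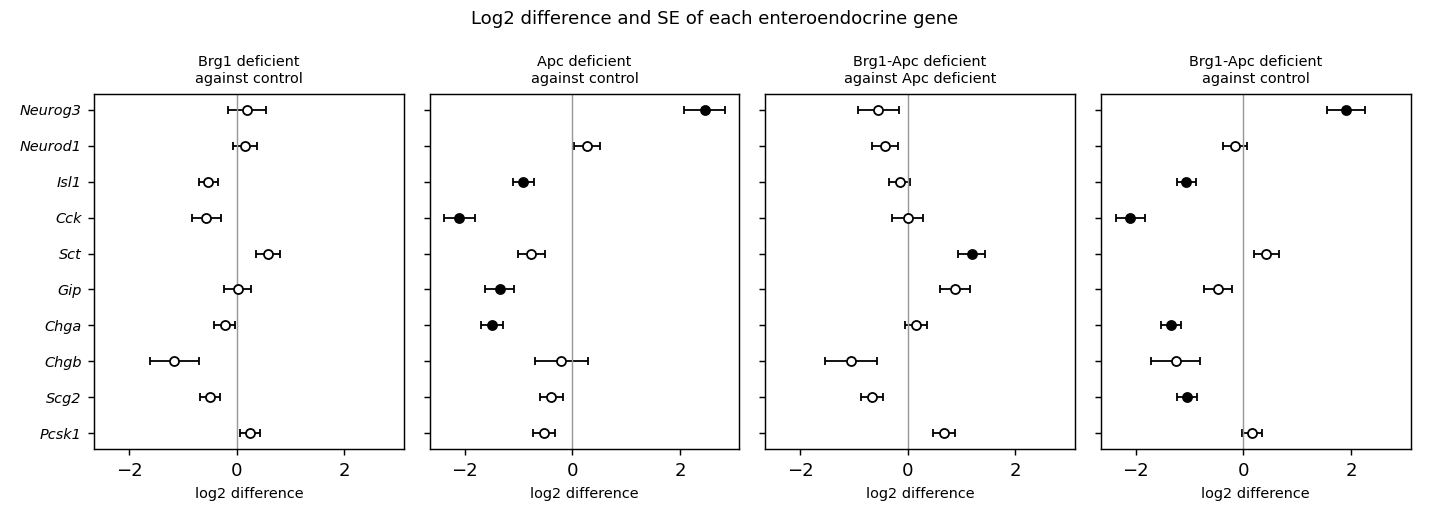
Log2 difference (x axis) of the 10 genes (y axis, by brightest probe) in 4 comparisons, 1 panel each. Points are limma estimates, bars are 1 SE, and filled points passed the test; 0 of 10 are filled for Brg1 loss alone, 5 for Apc loss, 1 (Sct) for Brg1 loss added to Apc loss and 5 for both against control.

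Counted by comparison, Brg1-Apc deficient against control mice had 5 of 10 genes called, beside 7.04% of all genes. Neurog3 rose, and Isl1, Cck, Chga and Scg2 fell, with a median log2 difference of the 10 of -0.76 (0.03 over all genes). This comparison and that of Apc deficient mice share the control arrays. Gip passed in Apc deficient mice (-1.35) and missed in Brg1-Apc deficient mice (-0.47), whereas Scg2 missed in the first (-0.39) and passed in the second (-1.05). In the direct comparison of the 2 groups neither difference passed, as given above. Brg1-Apc deficient against Brg1 deficient mice had 3 of 10 called (Neurog3 higher, Cck and, by its brightest probe alone, Chga lower), beside 6.47% of all genes. For the interaction, which asks whether the effect of Brg1 loss differs with and without Apc, 0 of 10 were called by limma, beside 1.07% of all genes, and 1 of 10 had an unadjusted p under 0.05. That gene was Gip (0.86, SE 0.37, adjusted p = 0.405). Only the controls lack Cre, so any effect of Cre itself enters the interaction too. Without control replicates 1 and 4 and Brg1 deficient replicate 4, a setting chosen after the data had been seen, the counts of called genes were 6 for Apc deficient against control (12.4% of all genes), 0 for Brg1 deficient against control (1.06%), 4 for Brg1-Apc deficient against Apc deficient (10.2%), 6 for Brg1-Apc deficient against control (4.38%) and 3 for Brg1-Apc deficient against Brg1 deficient mice (8.1%).

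The progenitor factor was set against the mature genes directly by testing each gene's change less the change of Neurog3 on the same arrays. With Apc loss against control all 7 hormone, granin and convertase genes differed from Neurog3 in their change. The gap was -4.56 (SE 0.46) for Cck, -3.95 (SE 0.42) for Chga, -3.81 (SE 0.56) for Gip and -3.22 (SE 0.59) for Sct, each on the log2 scale (limma with a variance per probe, adjusted p from 0.00029 to 0.000762 over these 4). For Pcsk1, Scg2 and Chgb it was -2.98, -2.85 and -2.67 (adjusted p from 0.000551 to 0.00125). The same test was passed by 97.4% of all genes, so the 7 calls say nothing particular to the mature genes. In Brg1-Apc deficient against control mice the gap ran from -4.01 for Cck to -1.49 for Sct, with 96.3% of all genes called, and in Brg1-Apc deficient against Brg1 deficient mice from -3.25 for Cck to -1.81 for Pcsk1, with 90.6% called. In Brg1 deficient against control mice 0 of the 7 passed by limma (0.241% of all genes did), and 1, Chgb, had an unadjusted p under 0.05 (gap -1.35, limma adjusted p = 0.592). In Brg1-Apc deficient relative to Apc deficient mice 0 of the 7 passed (0.0784% of all genes did). There Sct had the largest gap, 1.73 (SE 0.59, adjusted p = 0.46), and 3 of the 7, Sct, Gip and Pcsk1, had an unadjusted p under 0.05.

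**Figure D3:**
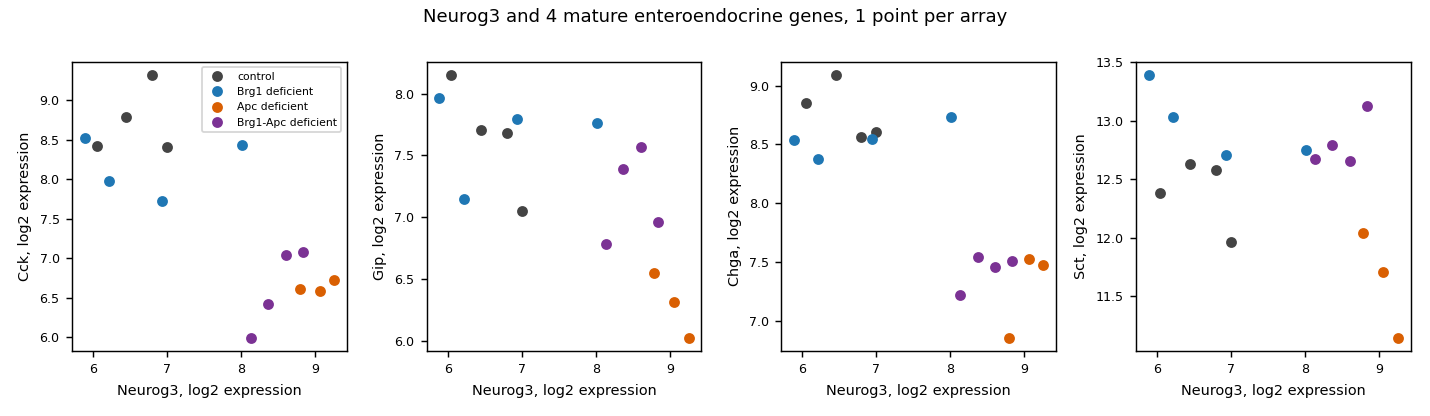
Log2 expression of Cck, Gip, Chga and Sct (y axes) against that of Neurog3 (x axes), 1 point per array, coloured by group. The 7 arrays without Apc sit at Neurog3 values of 8.14 or more; among them Cck and Chga are low in both groups, while Sct is low in the 3 Apc deficient arrays (11.15 to 12.04) and not in the 4 Brg1-Apc deficient arrays (12.66 to 13.13).

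Other hormone genes gave a wider view of the mature cells. Of 17 listed gut hormone and enterochromaffin genes 15 were measured, 7 of them near background by their mean over the arrays. Apc loss against control gave 4 falls and 0 rises among the 15, beside 15.2% of all genes called in either direction. Ddc, whose product makes serotonin and other amines and which enterocytes express too, fell by 2.60 log2 units (SE 0.50, limma adjusted p = 0.00174). Pyy, the peptide hormone of L cells, fell by 1.83 (SE 0.43, adjusted p = 0.00826). Sst, the somatostatin gene of D cells, fell by 1.39 (SE 0.27, adjusted p = 0.00214), and Ghrl, the ghrelin gene, by 1.33 (SE 0.32, adjusted p = 0.00819). The median of the 15 was -0.28, beside -0.03 over all genes. Brg1 loss alone gave 0 of 15 calls by limma (median -0.07), beside 3.31% of all genes, with 2 of the 15 at an unadjusted p under 0.05. Adding Brg1 loss to Apc loss gave 0 of 15 as well (median 0.05), beside 7.81% of all genes, with 4 of the 15 at an unadjusted p under 0.05.

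**Figure D4:**
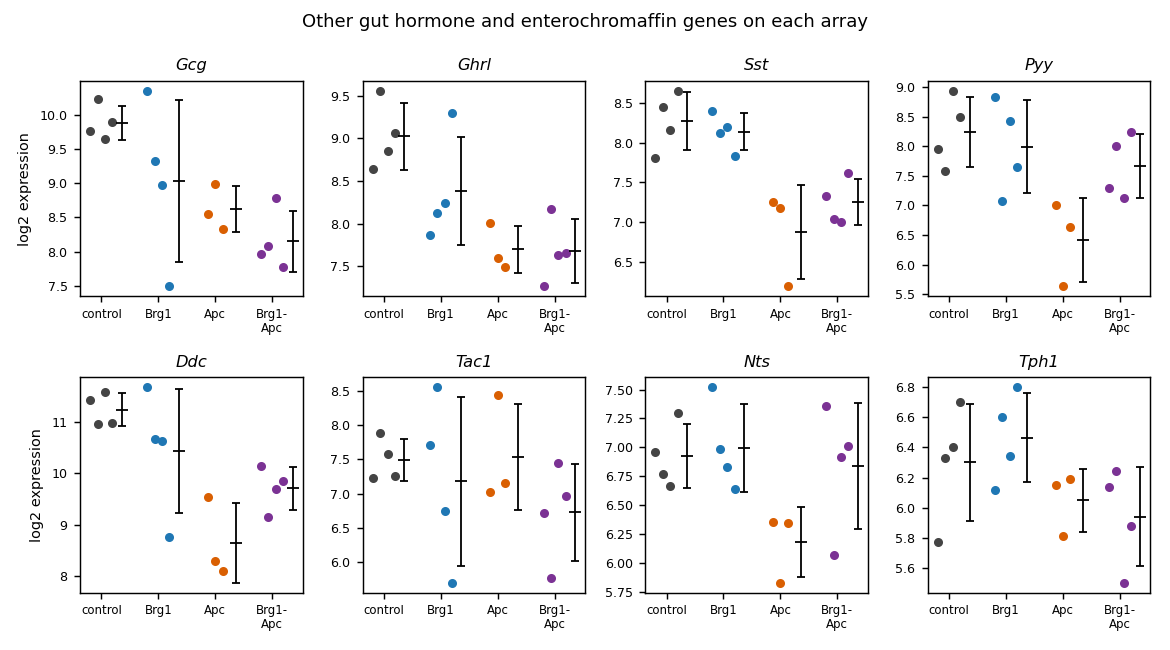
Log2 expression (y axis) of 8 other gut hormone and enterochromaffin genes in the 4 groups (x axis), with single arrays as points and the mean and SD beside them. Ghrl, Sst and Ddc lie lower on the 3 Apc deficient arrays than on the 4 control arrays, and so does Pyy (5.63 to 7.0 against 7.58 to 8.94).

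Among other enteroendocrine transcription factors 18 of 20 were measured, 12 of them near background. Apc deficient mice had 1 higher and 1 lower than control, beside 15.2% of all genes called, so the list was not called above that share. Foxa1, a forkhead factor found in several secretory lineages, rose by 2.24 (SE 0.59, limma adjusted p = 0.0157), from 8.22 ± 0.23 to 10.45 ± 0.27. Mlxipl, a glucose-responsive factor that enterocytes express as well, fell by 0.86 (SE 0.27, adjusted p = 0.046). Insm1, which acts after Neurog3, differed by 0.49 (SE 0.26, adjusted p = 0.285). With Brg1 loss alone Mlxipl was the single call of 18, beside 3.31% of all genes, lower by 1.04 (log2 difference -1.04, SE 0.25, limma adjusted p = 0.0334). In Brg1-Apc deficient relative to Apc deficient mice 0 of 18 were called by limma, beside 7.81% of all genes, and 1 had an unadjusted p under 0.05.

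Genes of granules and peptide processing other than the members gave 0 calls by limma of 18 measured (of 21 listed) in each comparison, and 13 of the 18 were near background. The share of all genes called ran from 1.07% for the interaction to 15.2% for Apc deficient against control mice. An unadjusted p under 0.05 was seen for 1 of 18 with Apc loss and for 2 of 18 with Brg1 loss against control. Of the nutrient and ligand receptors 14 of 16 were measured, 12 near background. The other 2 each passed in Apc deficient against control mice, in opposite directions, so 2 of the 14 were called beside 15.2% of all genes. Ffar4, a receptor for long-chain fatty acids, rose by 1.16 (SE 0.30, limma adjusted p = 0.0145), and Ffar2, a receptor for short-chain fatty acids, fell by 0.72 (SE 0.23, adjusted p = 0.0432). In Brg1-Apc deficient relative to Apc deficient mice both moved the other way, beside 7.81% of all genes called. Ffar4 fell by 1.66 (SE 0.30, limma adjusted p = 0.00281) and Ffar2 rose by 0.82 (SE 0.23, adjusted p = 0.0355). These receptors are also found on other cells of the gut wall. The 2 comparisons share the Apc deficient arrays, so an opposite direction in the second is partly built in. In Brg1-Apc deficient against control mice 0 of the 14 receptor genes were called by limma, beside 7.04% of all genes.

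Upstream of Neurog3, all 14 listed genes of Notch signalling and secretory lineage choice were measured, 6 near background. Notch signalling between crypt cells holds back Neurog3 through repressors of the Hes family. In Apc deficient against control mice 1 of the 14 was higher and 2 were lower, beside 15.2% of all genes called. Hes6, a Hes family member that opposes Hes1, rose by 1.44 (SE 0.20, limma adjusted p = 0.000153). The Notch ligand gene Dll1 fell by 1.19 (SE 0.23, adjusted p = 0.00175) and the Notch target Nrarp by 0.99 (SE 0.28, adjusted p = 0.0242). Hes1 stood at 8.57 ± 0.27 in control and 8.94 ± 0.20 in Apc deficient mice. With Brg1 loss alone 4 of 14 fell, beside 3.31% of all genes called: Nrarp by 2.80, Hes1 by 1.40, Dll1 by 1.32 and Hes6 by 0.85 (limma adjusted p from 2.31e-05 to 0.0328). Neurog3 did not pass in that comparison. In Brg1-Apc deficient relative to Apc deficient mice 3 of 14 fell, beside 7.81% of all genes called: Hes1 by 1.70, Dll1 by 0.99 and Nrarp by 0.96 (limma adjusted p = 0.00899, 0.0135 and 0.0461).

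Several members are also expressed by pancreatic islet cells and by enteric neurons, so markers of those cells were read beside them. Of 8 measured islet markers 7, Ins2 among them, were near background in every group mean, and the eighth was Slc2a2, a glucose transporter gene that enterocytes use as well. Slc2a2 was the 1 islet marker called in Apc deficient against control mice, where it fell from 10.61 to 8.05 (log2 difference -2.56, SE 0.70, limma adjusted p = 0.0207), in the direction of the mature genes that fell. Its part in their values was not tested. The 13 measured markers of enteric neurons and glia averaged 5.29 to 5.90 on every array, at the level of the array medians. By limma 0 of 13 passed in any comparison, where 1.07% (interaction) to 15.2% (Apc deficient against control) of all genes did. In Apc deficient and in Brg1 deficient against control mice 2 of 13 had an unadjusted p under 0.05. By group means 11 of the 13 were near background in control and 13 of 13 in each other group. In Apc deficient against control mice 11 of the 13 differences were negative, with a median of -0.23. The part of these cells in the members' values was not tested. The mean of the acinar markers was 10.12 on control replicate 4 and at most 6.43 on any other array. That of the smooth muscle markers was 9.04 on control replicate 1 and at most 7.6 on any other. Without those 2 control arrays the Apc deficient against control differences of Neurog3, Isl1, Cck, Gip and the brightest Chga probe were 2.41, -0.98, -2.42, -1.40 and -1.54, and all 5 passed (limma adjusted p from 0.00106 to 0.0197). These 5 had been called with all arrays, and the share of all genes called without the 2 was not counted. The Chga probe of middle brightness lost its call there (-1.46, limma adjusted p = 0.0571). Other epithelial cell types moved as well in that comparison. Of 9 measured epithelial and enterocyte markers 4 fell, of 6 goblet markers 3 fell, of 7 tuft markers 3 fell, and of 5 Paneth markers 2 rose, beside 15.2% of all genes called in either direction. The part that a changed mix of epithelial cells has in the enteroendocrine values was not tested.

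The genes whose levels ran most like Neurog3 over the 15 arrays were Hmgn1, Psmc3ip, Tlcd3a, Rrp12 and Cct3, with Pearson's r of 0.965 to 0.957. Those most like the brightest Chga probe were Slc6a4, Slc22a18, Surf4, Nucb1 and Hip1r, with r of 0.931 to 0.915. The 2 sets differed once each group's mean was removed. Then r stayed at 0.766 to 0.874 for the first 5. It was 0.183 to 0.452 for the second 5, so that the likeness to Chga was largely one of group means. Neurog3 varied most among the Brg1 deficient arrays (SD 0.94, beside 0.42 in control, 0.23 with Apc loss and 0.30 with both losses). The brightest Chga probe had an SD of 0.15 there, beside 0.24, 0.37 and 0.14. How far the r of the first 5 rests on that group, which holds the narrow-spread replicate 4, was not tested. Both sets were picked by r on the same arrays. The arrays fall into genotype groups, and these values describe the arrays only.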

How the data were processed

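Total RNA was amplified and dye-labelled (1 colour) and read on bead arrays, 1 per mouse, per the labels' protocols. The values are log2 expression as deposited by the authors. Their normalization, detection calls and build are not given in the sources used here, and the values were used unchanged. Groups and replicate numbers came from the sample labels, and cohorts of mice are described, so replicates are separate mice. Probes were named by the platform annotation (23976 of 25695 with 1 symbol, 1719 unnamed), and the brightest probe over the 15 arrays stood for a gene in counts.

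A mean per genotype was fitted over all probes and arrays with limma 3.58.1 in R 4.3.3 (11 residual degrees of freedom, two-sided, adjusted p under 0.05). For the change less that of Neurog3, a moderated fit gave every probe the same variance, since all carry the Neurog3 values, so variances per probe were used and the moderated fit became an alternative. The number of arrays limits the precision. Fits were tested on simulated data.

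Named are all 10 genes, Smarca4 and Apc, genes of the 5 other enteroendocrine and Notch lists that passed in 3 main comparisons (up to 6 a list), and the 5 genes most like Neurog3 and Chga; Insm1, Gcg, Ins2 and Slc2a2 lie outside this rule and were added after their values were seen. Members, the 13 other lists (156 of 180 genes measured) and motifs were chosen with earlier results of these data known. Promoters came from RefSeq's GRCm38.p6 table, and plots were made in Python 3.11.15 with matplotlib 3.10.9. Alternatives were slide or replicate number as a block, single slides, quantile normalization, median centring, a filter on dim probes, only the groups compared, a trended robust prior, array weights, the most variable probe, and leaving out arrays.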

Additional observations from a re-analysis of the deposited data

Results flagged for a closer look

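The dimmest of the 3 Chga probes read 5.51 on Brg1 deficient replicate 4 and 6.63 to 6.85 on the other arrays of that group. Its gap to the nearest array was 0.84 of the group's range, just above Dixon's critical value for 4 arrays. It was the single such array among 36 groups of 4 arrays tested, where chance gives about 1 in 20. The same array had the narrowest spread of values of all 15, as given in the report.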

How the results depend on the processing

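No called difference of a member changed sign in any of the alternatives run, and 0 of 1920 values reversed, while 71 values that were never called changed sign. Neurog3 and the brightest Chga probe kept their calls in Apc deficient against control mice in 27 of 27 alternatives, Cck and Gip in 26 and Isl1 in 25. On slide 2 alone Apc deficient mice have 1 array, whose spread is taken to be that of the other groups. Fewer of the 10 genes were called there in each comparison of 2 groups that included a group without Apc. Fewer of all genes were called there too, so the drop was not particular to the 10. On slide 1 alone Brg1-Apc deficient against Apc deficient mice gave 2 of 10, beside 7.18% of all genes (1 and 7.81% with all arrays). Brg1-Apc deficient against Brg1 deficient mice gave 1 of 10, beside 3.06% (3 and 6.47%). Fewer arrays enter these fits. The count for Brg1-Apc deficient against Apc deficient mice moved by over 1.5 times in 12 of 28 alternatives, more of them than for any other count. Any change of a count of 1 exceeds 1.5 times, so this ranking partly reflects the small starting count. That count was 2 with quantile normalization, 3 with only probes above the median level, 3 with only the 2 groups, 2 with a trended and robust prior, 4 with array weights, and 4 without control replicates 1 and 4 and Brg1 deficient replicate 4. The last of these stands beside 10.2% of all genes, and for the others that share was not counted. Leaving out 1 array gave 0 (Apc deficient replicate 2) to 5 (Brg1 deficient replicate 4). It gave 5 to 6 for Apc deficient against control, 5 to 6 for Brg1-Apc deficient against control, 3 to 4 for Brg1-Apc deficient against Brg1 deficient, and 0 to 1 for Brg1 deficient against control mice, where Isl1 passed without Brg1 deficient replicate 1 (adjusted p = 0.0494, limma). Without Brg1 deficient replicate 4 the first 3 of these were 6, 6 and 4, beside 19%, 11.5% and 9.79% of all genes. With all arrays those shares were 15.2%, 7.04% and 6.47%. Apart from Apc deficient replicate 2, the share was not counted for the other arrays left out. Leaving out 1 array gave 0 to 0 for the interaction, 15 to 24 of the 72 probe and comparison pairs (16 with all arrays) and 7 to 7 of the 7 mature genes against Neurog3. The cause of these shifts was not tested. With the replicate number as a block the counts were 0, 5, 1, 5, 3 and 0 for the 6 comparisons and 16 of 72, as without it. Deviations of same-numbered arrays from their group means correlated at r from -0.18 to 0.27, over 0.1 in 8 of 21 pairs, and in 8 of 63 pairs of other numbers. In none of the 5 comparisons of 2 groups was every same-numbered pair over 0.1 (at most 2 of 3, in Apc deficient against control mice), so the mice were treated as sharing only a number. The 3 such pairs of Apc deficient and Brg1 deficient mice, which were not compared with each other, were each over it (0.113 to 0.117). For the interaction no fit on only 2 groups could be had. Without detection calls, values near 5.90 cannot be told from background, which limits Neurod1, Pcsk1, Isl1 and Scg2.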

Other observations

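Gcg, the glucagon and GLP-1 precursor gene of L cells, was singled out after its values were seen. It read 9.76, 10.23, 9.65 and 9.89 in control, 8.55, 8.99 and 8.33 in Apc deficient, and 7.97, 8.08, 8.79 and 7.77 in Brg1-Apc deficient mice. Both groups without Apc lay below all control arrays. The double deficient mice stood 3.33-fold below control (log2 difference -1.73, SE 0.42, limma adjusted p = 0.019). Gcg was 1 of 3 called of the 15 other hormone and enterochromaffin genes, beside 7.04% of all genes, with Ghrl (-1.35, limma adjusted p = 0.0101) and Sst (-1.02, adjusted p = 0.0234). In Apc deficient against control mice its difference of -1.26 (SE 0.45) did not pass (adjusted p = 0.0802). The Brg1 deficient arrays were spread from 7.49 on replicate 4 to 10.35 on replicate 1. Slc6a4, the serotonin transporter gene and the gene most like Chga, had group means of 10.70 (control), 9.81 (Brg1 deficient), 7.52 (Apc deficient) and 7.71 (both).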
